A study of Mus musculus with 18 samples.

Results

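The major histocompatibility (H2) genes of the mouse were followed in the hypothalamus of hypertensive BPH/2J and normotensive BPN/3J mice. Members were all probesets of the Affymetrix Mouse Gene 1.0 ST array listed with exactly 1 gene symbol, where that symbol starts with H2- or is B2m, Cd74, Ciita, Tap1, Tap2, Tapbp, Psmb8 or Psmb9. There were 37 such probesets, for 37 genes, among 34760 probesets on the array. A further 10 probesets list a member beside other symbols, H2-K1 and H2-D1 among them, and are given apart under no gene name.

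RNA from 18 male mice had been hybridized, with 1 mouse per array and no pooling. At ‘peak’ BP, in the active period, there were 6 BPH/2J and 6 BPN/3J mice, all 26 weeks old. At ‘trough’ BP, in the inactive period, there were 3 mice of each strain, aged 18 weeks by the sample labels and 19 weeks by the series description. Time of day and age thus differed together, and their parts in any ‘peak’ against ‘trough’ difference cannot be told apart. Both are inbred Schlager strains with no transgene or drug, so strain stands for all of their genetic differences and not for blood pressure alone. For the 3 BPN/3J ‘trough’ mice, the strain and source labels read BPH/2J, whereas the title, the description and the normotensive tag give BPN. The title was followed, and these mice are called BPN/3J below. The labels name the whole hypothalamus as the tissue, while the methods of the study describe dissection of the paraventricular and dorsomedial parts.

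Class I molecules sit on nearly all nucleated cells and show them peptides from inside the cell. They consist of a heavy chain from the H2 region and a common light chain, beta-2 microglobulin, the product of B2m. The peptides are cut by the immunoproteasome (Psmb8, Psmb9), carried into the endoplasmic reticulum by the transporter Tap1 and Tap2, and loaded with the help of tapasin (Tapbp). Class II molecules are pairs of H2-A or H2-E chains on professional antigen presenting cells. They are guided by the invariant chain Cd74 and switched on by the coactivator Ciita, while H2-DM and H2-O act in their peptide loading. In the brain, microglia and vessel cells are usual sources of class I molecules, which are also known from neurons.

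Of the members, 34 lie in the H2 region of chromosome 17, while B2m lies on chromosome 2, Ciita on 16 and Cd74 on 18. By role there were 1 light chain, 1 pseudogene of the K region (H2-K2), 19 class I-like genes of the Q, T and M regions, 10 genes of class II and 5 genes of peptide supply. The last member, H2-Ke6, carries an H2 symbol for its place only and encodes a steroid dehydrogenase. RefSeq lists 5 members, H2-K2, H2-Q5, H2-Bl, H2-T10 and H2-Ea, as transcribed pseudogenes.

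Promoters are shown for 3 genes because B2m was the only member that passed between the strains, while other members share letters of its promoter. The windows are the 250 bases before the gene start in RefSeq (GRCm38.p6), read 5′ to 3′ on the strand of the gene. Capitals mark matches, on either strand, to the X2 box core TGACG, the Y box ATTGG, the core of the interferon-stimulated response element (GAAA, any 2 bases, GAAA) and the kappa B site (GGGA, any 4 bases, CC). Where a kappa B match and its own reverse match overlap, the run is capitalised as a whole. B2m is at chr2:122147437-122147686 (plus strand). The class I heavy chain gene H2-D1, which is no member since its probesets are shared, is at chr17:35262844-35263093 (plus strand). Psmb9 is at chr17:34187331-34187580 (minus strand).
B2m: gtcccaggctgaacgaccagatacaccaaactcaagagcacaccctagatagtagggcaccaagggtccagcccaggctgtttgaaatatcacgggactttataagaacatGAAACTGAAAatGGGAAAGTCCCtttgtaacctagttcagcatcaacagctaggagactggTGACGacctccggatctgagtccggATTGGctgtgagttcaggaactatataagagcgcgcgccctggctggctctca
H2-D1: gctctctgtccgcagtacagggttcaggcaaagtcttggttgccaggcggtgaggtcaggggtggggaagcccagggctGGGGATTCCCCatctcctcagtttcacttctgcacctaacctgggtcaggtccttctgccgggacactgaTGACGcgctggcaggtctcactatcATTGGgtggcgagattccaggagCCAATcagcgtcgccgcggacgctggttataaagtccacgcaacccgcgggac
Psmb9: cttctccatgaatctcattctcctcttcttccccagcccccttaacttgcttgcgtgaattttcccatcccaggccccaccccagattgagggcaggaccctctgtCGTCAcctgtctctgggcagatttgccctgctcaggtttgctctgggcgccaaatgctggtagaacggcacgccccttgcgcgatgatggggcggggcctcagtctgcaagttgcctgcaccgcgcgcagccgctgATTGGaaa

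Windows were found for 27 of the 37 members, 29 windows in all. The Y box letters occurred in 86.2% of them and in 33.8% of the 32851 windows of all genes, and the X2 letters in 37.9% and 17.8%. Kappa B letters occurred in 24.1% and 17.6%. Both X2 and Y letters were present in 11 member windows (37.9%, beside 6.12% of all windows), namely those of B2m, Psmb9, Tap1, H2-Aa, H2-Q4, H2-M10.1, H2-M10.3, H2-M10.4, H2-M10.5, H2-M2 and H2-M3. The windows of Psmb9 and Tap1 share 225 bases, since these genes are read in opposite directions from the same stretch. The interferon-stimulated letters occurred in the B2m window only among members (3.45%, beside 2.98% of all). It was also the only member window with all 4, as in 9 windows of all genes (0.0274%). A match is a description of the letters and not evidence of a bound site.

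Values are RMA-normalized signals on the log2 scale. Signals of different probesets also depend on their probes, so no level is compared between genes. Median signal per array ran from 6.17 to 6.42. Arrays correlated with the others of their group at 0.967 to 0.992, and no pair was identical. Within single lists of cell markers, means of hypothalamic neuron markers ran from 8.58 to 9.89 between mice and those of T and NK cell markers from 4.89 to 5.54. Markers of the choroid plexus ranged from 6.23 to 9.25 between mice, with low and high mice in every group. In tissue RNA, fewer cells of a type and less RNA per cell cannot be told apart. Of the members, 18 had a mean signal under the 40th percentile of all probesets and 3 were over the 75th (Tapbp, H2-T10 and B2m).

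All comparisons come from a single limma model that held the 4 groups. Benjamini-Hochberg adjustment ran over the whole table of 34760 probesets, and “passed” means that the adjusted p was under 0.05. Intervals are 95% intervals of the difference. Each array is a separate mouse, so a p-value sets a difference against the spread between mice. That spread is pooled over the 4 groups and drawn toward that of the other probesets.

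Between the strains, B2m alone passed, and at ‘peak’ BP alone. The strain difference that B2m showed at ‘trough’ BP had the same sign and a similar size but missed the threshold, and the test of the change between times did not pass. The next lowest adjusted p of any member at ‘peak’ BP was 0.511 in limma (H2-M10.6). At ‘trough’ BP a few class I-like genes, Psmb9 and Ciita had lower values in BPH/2J than in BPN/3J, none of which passed.

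In BPN/3J mice at ‘peak’ BP, B2m had its lowest value at 10.25, its median at 10.56 and its highest at 10.78. In BPH/2J mice at ‘peak’ BP, the lowest was 9.52, the median 9.78 and the highest 9.85. All 6 BPH/2J mice were below all 6 BPN/3J mice. At ‘trough’ BP the 3 BPN/3J mice had 9.55, 9.81 and 10.03. The 3 BPH/2J ‘trough’ mice had 9.04, 9.24 and 9.25. Again the strains did not overlap, and the BPH/2J ‘peak’ mice lay within the range of the BPN/3J ‘trough’ mice apart from the lowest, which was just below it.

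At ‘peak’ BP the B2m signal was 1.72-fold lower in BPH/2J (interval 1.49 to 1.98), a log2 difference of -0.78 ± 0.10 (SE, n = 6 per strain). Its adjusted p in limma was 0.000119, the rank 100 among all 34760 probesets. At ‘trough’ BP the signal was 1.54-fold lower (interval 1.26 to 1.88), a log2 difference of -0.62 ± 0.14 (SE, n = 3 per strain), with an adjusted p of 0.0523 in limma and rank 188. The quantity *d*, the strain difference at ‘peak’ minus that at ‘trough’ BP, was -0.16 (interval -0.51 to 0.20, adjusted p 0.787 in limma). Hence B2m could not be assigned to a strain difference at 1 time rather than at both. The ‘trough’ call turned on the setting, with adjusted p in limma from 0.000154 to 0.316 over the alternatives and from 0.0305 to 0.209 when each array was left out in turn.

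**Figure D1:**
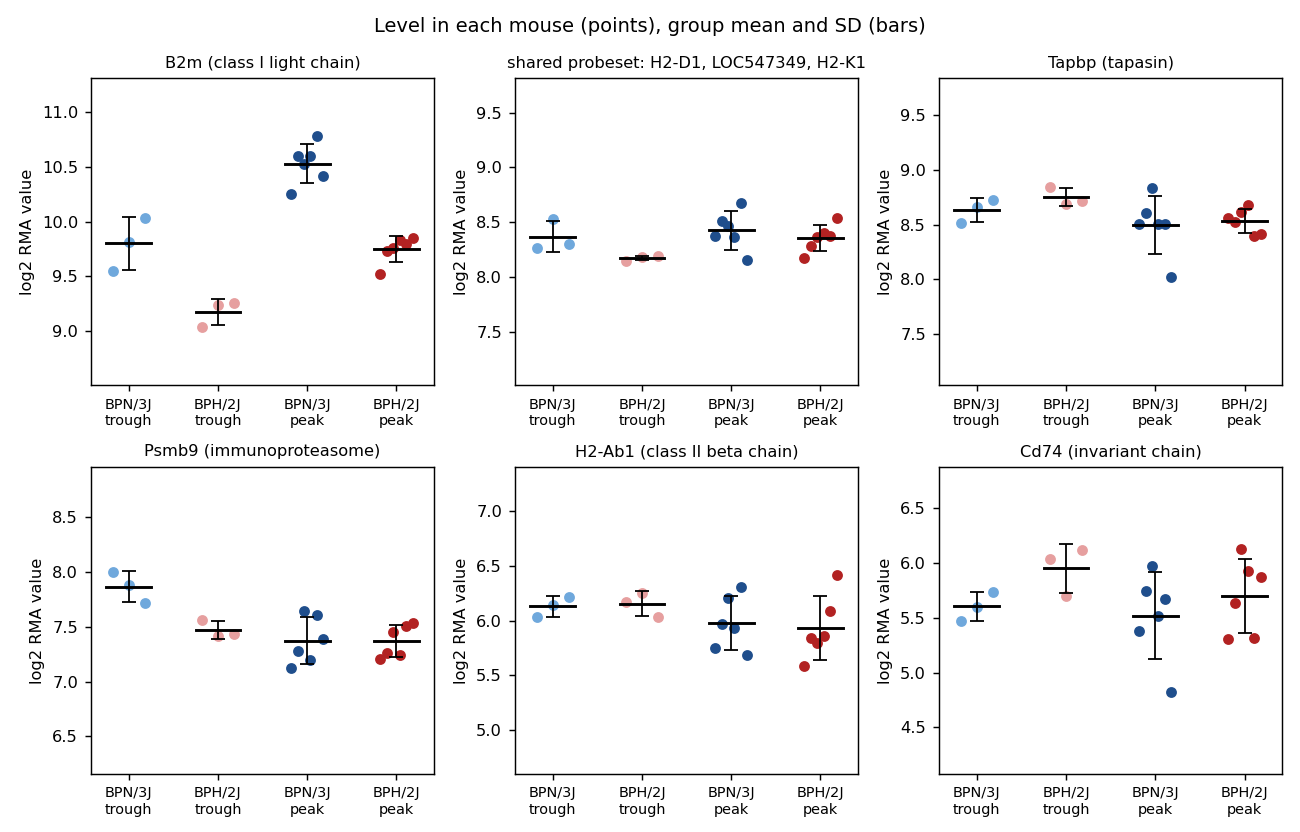
Log2 RMA signal (vertical axes) of 6 probesets in each mouse (points) of the 4 groups, with the group mean and SD (bars). B2m is separated by strain at both times, with all BPH/2J mice under all BPN/3J mice of the same time, while the other 5 probesets overlap at ‘peak’ BP.

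At ‘peak’ BP, 1 of 37 members passed (2.7%), beside 1.33% of all probesets, and it was lower in BPH/2J, as were 0.713% of all. It also was the only one past 1.5-fold, beside 3.11% of all. The strains did not overlap for B2m alone, as was true of 1.57% of all probesets. No other member had even an unadjusted p under 0.05, beside 9.93% of all probesets that did. Without B2m the differences ran from -0.15 (H2-Q5) to 0.20 (H2-M10.6), with a median of 0.02 over all members beside -0.01 over all probesets. The interval lay within 1.5-fold either way for 36 of 37 members, beside 81.8% of all probesets.

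At ‘trough’ BP, 0 of 37 members passed in limma, beside 0.529% of all probesets, and 7 had an unadjusted p under 0.05, beside 10.4%. Those 7 were B2m, Psmb9, H2-Q5, Ciita, H2-K2, H2-M9 and H2-Bl, all with the lower mean in BPH/2J, and B2m alone was past 1.5-fold, beside 2.95% of all. Ciita, H2-K2, H2-M9 and H2-Bl are dim, with a mean signal under the 40th percentile of all probesets. In 7 members the strains did not overlap (18.9%), again lower in BPH/2J, beside 19.9% of all probesets in either direction and 8.73% lower in BPH/2J. These were B2m, Psmb9, H2-Q5, Ciita, H2-K2, H2-M9 and H2-T10. The median difference was -0.12 over the members and 0.00 over all probesets. Among probesets under the 40th percentile of signal it was -0.16 over the 18 dim members and -0.08 over all dim probesets. With each array centred on its median, the median was -0.05 over the members and 0.07 over all probesets. Only 23 of 37 intervals lay within 1.5-fold, beside 61% of all probesets.

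Passing in the same direction at both times was found for 0 members in limma and for 140 of all probesets (0.403%). B2m alone had an unadjusted p under 0.05 at both times, and alone did not overlap between the strains at either time, beside 0.935% of all probesets. By sign alone, 10 members including B2m had the lower mean in BPH/2J at both times, 5 had the higher mean at both times, and 22 had opposite signs. For *d*, 0 of 37 members passed in limma, as did 0% of all probesets, and 4 had an unadjusted p under 0.05, beside 8.31%. These were Ciita (0.44), H2-M9 (0.44), Psmb9 (0.39) and H2-M10.6 (0.38), with adjusted p of 0.593 to 0.597 in limma. Without BPN/3J ‘trough’ mouse 1, 0 members had an unadjusted p under 0.05 for *d*, and the members' median *d* went from 0.15 to 0.06. No member reached 1.5-fold in *d*, beside 5.93% of all probesets. The interval of *d* lay within 1.5-fold for 17 of 37 members, beside 46.3% of all probesets, and reached past that size for the rest.

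**Figure D2:**
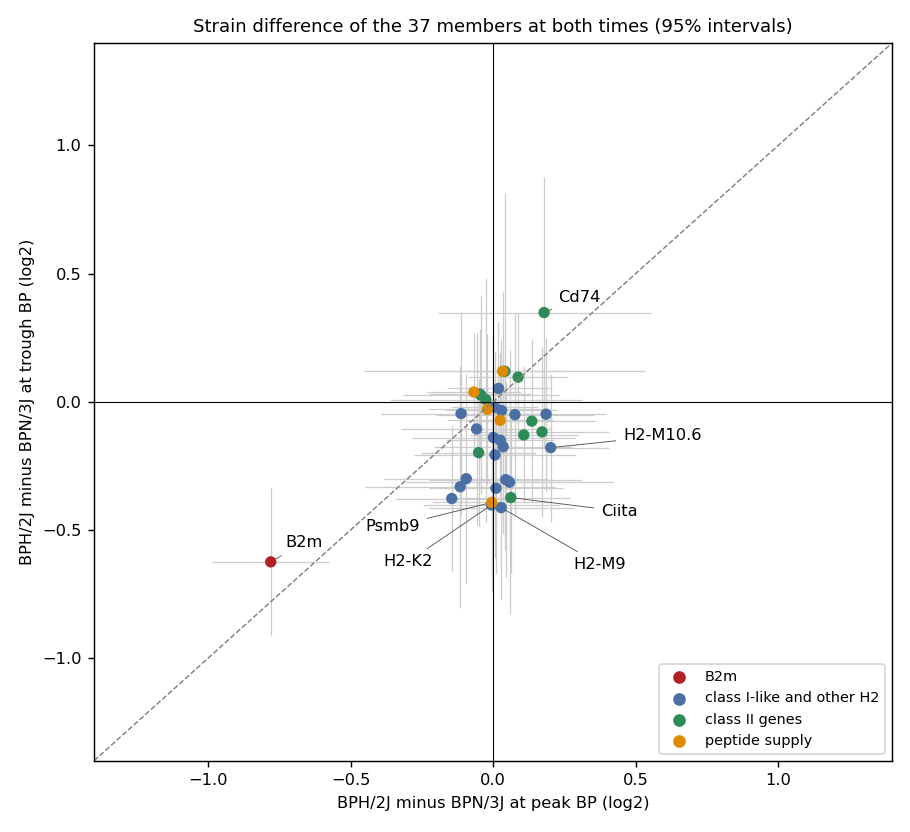
Strain difference (BPH/2J minus BPN/3J, log2) of the 37 members at ‘peak’ BP (horizontal) and ‘trough’ BP (vertical), with grey 95% intervals, a dashed line of equal differences and colours by role. B2m lies apart near the dashed line at -0.78 and -0.62, and the other members lie between -0.15 and 0.20 at ‘peak’ BP.

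Among the genes of peptide supply, 0 of 5 passed between the strains in limma at either time, with 1 at an unadjusted p under 0.05 (Psmb9 at ‘trough’ BP). Psmb9, a catalytic subunit of the immunoproteasome, had 7.42, 7.44 and 7.56 in the BPH/2J ‘trough’ mice and 7.72, 7.88 and 7.996 in the BPN/3J ‘trough’ mice. At ‘peak’ BP it ran from 7.20 to 7.53 in BPH/2J and from 7.12 to 7.64 in BPN/3J. The strains were thus apart at ‘trough’ BP (-0.39 ± 0.14, SE, adjusted p 0.342 in limma) and overlapped at ‘peak’ BP (-0.01 ± 0.10). Its partner Psmb8 differed by 0.02 and -0.07, and the transporter subunits Tap1 by -0.07 and 0.04 and Tap2 by -0.02 and -0.03. Tapasin (Tapbp) differed by 0.03 and 0.12. Further genes of class I loading, from a list of 14 with 13 measured, gave 0 passes at either time and 0 and 1 at an unadjusted p under 0.05.

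The probeset listed with H2-D1, LOC547349 and H2-K1 covers the classical heavy chains that pair with beta-2 microglobulin. It had 8.17, 8.37 and 8.54 as lowest, median and highest value in BPH/2J at ‘peak’ BP, and 8.15, 8.42 and 8.68 in BPN/3J. At ‘trough’ BP it had 8.15, 8.18 and 8.19 in BPH/2J and 8.27, 8.30 and 8.53 in BPN/3J. The strains overlapped at ‘peak’ and were apart at ‘trough’ BP, with differences of -0.07 (interval -0.25 to 0.11) and -0.20 (interval -0.45 to 0.06). The probeset listed with H2-K1, LOC547349 and H2-D1 differed by -0.09 and -0.23, with adjusted p of 0.817 and 0.498 in limma. At ‘peak’ BP both intervals left out the size of the B2m difference.

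None of the 10 probesets with several symbols passed in any of the 5 comparisons in limma, with 0, 0, 0, 1 and 4 at an unadjusted p under 0.05 in the order strain at ‘peak’, strain at ‘trough’, *d*, time in BPH/2J and time in BPN/3J. Their strain differences ran from -0.28 (H2-Q6 and H2-Q8) to 0.09 (H2-T3 and H2-T18) at ‘peak’ and from -0.27 (H2-Q1 and H2-Bl) to -0.10 at ‘trough’ BP. The others were the probesets listed with H2-DMb2 and H2-DMb1, with H2-T-ps and H2-T23, with H2-T9, H2-T22 and H2-T10, and 2 listed with Rps3a1 and Tapbp. Members with near-identical relatives in the Q, T and M regions may share hybridization with them, and the probe sequences were not analysed here. Strain differences in RNA level and in sequence under the probes thus cannot be told apart, for B2m as well.

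Among the class I-like genes, 0 of 19 passed between the strains at either time in limma, with 0 at ‘peak’ and 3 at ‘trough’ BP at an unadjusted p under 0.05. Of the 4 in the Q region, H2-Q5 had the most negative strain differences (-0.15 at ‘peak’ and -0.38 at ‘trough’ BP, adjusted p 0.690 and 0.347 in limma). H2-Q2 differed by 0.01 and -0.21, H2-Q4 by -0.06 and -0.11, and H2-Q10 by 0.02 and 0.05. Of the 3 in the T region, H2-Bl differed by 0.01 and -0.34, H2-T10 by 0.04 and -0.30, and H2-T24 by 0.01 and -0.02. H2-M3, which presents formylated bacterial peptides, differed by -0.11 and -0.05 (interval -0.44 to 0.35 at ‘trough’ BP). The remaining 11 genes of the M region, several of which belong to the M10 family known from vomeronasal neurons, lay between -0.12 (H2-M10.5) and 0.20 (H2-M10.6) at ‘peak’ BP. At ‘trough’ BP they lay between -0.41 (H2-M9) and 0.03 (H2-M10.1). The pseudogene H2-K2 differed by -0.01 and -0.40, and the dehydrogenase gene H2-Ke6 by 0.19 and -0.05.

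Among the class II genes, 0 of 10 passed between the strains at either time in limma, with 0 at ‘peak’ BP and only Ciita at ‘trough’ BP at an unadjusted p under 0.05. Ciita, the coactivator needed for class II transcription, is a dim member, at percentile 36.2 of mean signal. It had 5.31, 5.42 and 5.47 in the BPH/2J ‘trough’ mice and 5.49, 5.79 and 6.05 in the BPN/3J ‘trough’ mice. The strains touched at the edge there without overlap, the difference being -0.37 ± 0.14 (SE, adjusted p 0.379 in limma). At ‘peak’ BP its lowest, median and highest values were 5.23, 5.30 and 5.60 in BPH/2J and 5.04, 5.33 and 5.52 in BPN/3J, a difference of 0.06 ± 0.10. The class II genes that Ciita is known to switch on follow.

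Cd74, the invariant chain, had 5.70, 6.04 and 6.12 in the BPH/2J ‘trough’ mice and 5.47, 5.60 and 5.74 in the BPN/3J ‘trough’ mice. At ‘peak’ BP the lowest, median and highest values were 5.31, 5.75 and 6.13 in BPH/2J and 4.82, 5.60 and 5.97 in BPN/3J. The differences were 0.18 (interval -0.20 to 0.55) and 0.35 (interval -0.18 to 0.88) at ‘peak’ and ‘trough’ BP, with the strains overlapping at both times.

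H2-Ab1, the beta chain of H2-A, had 6.03, 6.17 and 6.26 in the BPH/2J ‘trough’ mice and 6.03, 6.15 and 6.21 in the BPN/3J ‘trough’ mice. At ‘peak’ BP it had 5.58, 5.85 and 6.42 as lowest, median and highest value in BPH/2J and 5.68, 5.95 and 6.31 in BPN/3J. The strains overlapped at both times, with differences of -0.04 ± 0.13 and 0.03 ± 0.18 (SE). H2-Aa, the alpha chain, had 5.14, 5.15 and 5.16 in the BPH/2J and 4.92, 5.23 and 5.27 in the BPN/3J ‘trough’ mice. At ‘peak’ BP H2-Aa had 4.59, 5.06 and 5.27 in BPH/2J and 4.54, 5.14 and 5.43 in BPN/3J. Here the strains overlapped again, with differences of -0.03 ± 0.16 and 0.01 ± 0.23.

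H2-Eb1, the beta chain of H2-E, had 6.45, 6.58 and 6.65 in the BPH/2J and 6.43, 6.54 and 6.94 in the BPN/3J ‘trough’ mice. At ‘peak’ BP its lowest, median and highest values were 6.23, 6.44 and 6.82 in BPH/2J and 6.11, 6.33 and 6.50 in BPN/3J. Here too the strains overlapped, with differences of 0.14 ± 0.11 at ‘peak’ and -0.08 ± 0.15 at ‘trough’ BP. H2-Eb2 differed by 0.11 and -0.13, and H2-Ea, whose residual SD of 0.44 was the widest of all members, by 0.04 and 0.12. The class II loading genes H2-DMa, H2-Oa and H2-Ob differed by 0.09, 0.17 and -0.05 at ‘peak’ and by 0.10, -0.12 and -0.20 at ‘trough’ BP. A list of 15 further genes of class II control and processing, 13 of them measured, gave 0 passes at either time in limma, with 2 and 2 at an unadjusted p under 0.05.

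**Figure D3:**
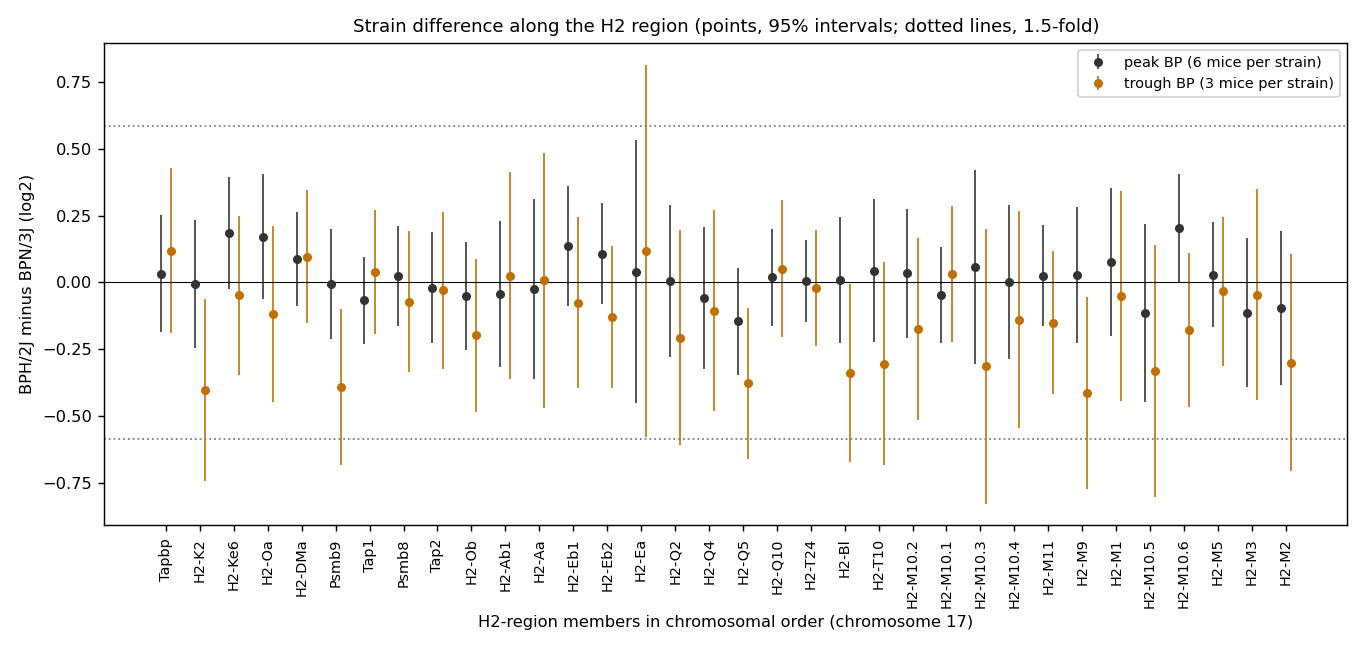
Strain difference (BPH/2J minus BPN/3J, log2) of the 34 members on chromosome 17 in their order along the chromosome, at ‘peak’ BP (black) and ‘trough’ BP (orange), with 95% intervals and dotted lines at 1.5-fold. Every ‘peak’ interval includes 0 and all differences lie within the dotted lines. At ‘trough’ BP 17 of the 19 class I-like genes lie below 0 (median -0.18), as do 4 of the 8 class II chain and loading genes (median -0.03). Of all probesets, 17237 of 34760 lie below 0 at that time, and 8881 of the 13904 under the 40th percentile of signal.

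Other genes lying between the first and the last H2- member were set beside the members, 124 genes on 127 probesets. Of these, 2 probesets passed at ‘peak’ BP in limma (1.57%, beside 1.33% of all) and 0 at ‘trough’ BP (beside 0.529%). An unadjusted p under 0.05 was found for 8 at ‘peak’ BP, beside 9.93% of all probesets, and for 10 at ‘trough’ BP, beside 10.4%. The complement gene C4a was lower in BPH/2J at ‘peak’ BP (-0.49 ± 0.10, SE, adjusted p 0.00992 in limma) and the complement gene C2 was higher (0.39 ± 0.08, adjusted p 0.0112). Around B2m, the 10 nearest genes on either side were measured on 22 probesets. Only Spg11 passed there at ‘peak’ BP (-0.33 ± 0.08, adjusted p 0.0483 in limma), which is 4.55% beside 1.33% of all. At that time 5 of 22 had an unadjusted p under 0.05, 2 higher and 3 lower in BPH/2J, beside 9.93% of all probesets. At ‘trough’ BP 0 passed, beside 0.529%, and 2 had an unadjusted p under 0.05, beside 10.4%. The B2m difference was larger in size than that of every neighbour measured, which ran from -0.37 to 0.28 at ‘peak’ BP. B2m was set beside its neighbours because it had passed, so this order is no test of its locus.

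Interferon gamma is a known inducer of B2m, of class I and, through Ciita, of class II. In a list of 29 genes of interferon signalling and interferon-induced GTPases, 21 were measured, and 3 passed at ‘peak’ BP in limma (14.3%, beside 1.33% of all). Ifngr2, a chain of the interferon gamma receptor, was lower in BPH/2J by -0.93 ± 0.09 at ‘peak’ (SE, adjusted p 3.31e-06 in limma) and by -0.77 ± 0.12 at ‘trough’ BP (adjusted p 0.00376), and was the only gene of the list to pass at both. The interferon-induced genes Ifit3 (0.50 ± 0.11, adjusted p 0.0307) and Oasl2 (0.32 ± 0.08, adjusted p 0.0463) were higher in BPH/2J at ‘peak’ BP. The median of the list was -0.03 at ‘peak’ and 0.04 at ‘trough’ BP. The part of interferon signalling in the B2m difference was not tested. Among 9 measured genes for receptors that read MHC molecules, of 13 listed, only Klra2 passed (0.54 ± 0.10 at ‘peak’ BP, adjusted p 0.00651 in limma). That is 11.1% at ‘peak’ BP, beside 1.33% of all probesets. Of 8 measured class I-like genes outside the H2 region, 0 passed at either time in limma, with 1 and 1 at an unadjusted p under 0.05.

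Markers of cell types of the brain were read beside B2m. Of 11 microglia markers measured, 1 passed at ‘peak’ BP (9.09%, beside 1.33% of all probesets), the complement gene C1qc (-0.54 ± 0.09, SE, adjusted p 0.00257 in limma, lower in BPH/2J), and 0 at ‘trough’ BP, with 3 at an unadjusted p under 0.05. The list as a whole lay slightly above 0, with 7 of 11 markers higher in BPH/2J at ‘peak’ (median 0.03) and 8 of 11 at ‘trough’ BP (median 0.11). Their mean level ran from 7.27 to 7.41 in BPH/2J and from 7.19 to 7.43 in BPN/3J at ‘peak’ BP. At ‘trough’ BP it ran from 7.43 to 7.47 and from 7.34 to 7.47. The ranges of the strains overlapped at both times. Of 6 endothelial markers, Slco1a4 passed as higher in BPH/2J at both times (0.62 ± 0.12 and 1.30 ± 0.17, adjusted p 0.00931 and 0.000469 in limma). That is 16.7% of the list, beside 1.33% of all probesets at ‘peak’, 0.529% at ‘trough’ BP and 0.403% at both. Of the 6, 3 were higher and 3 lower in BPH/2J at ‘peak’ BP (median -0.02). At ‘trough’ BP 5 were higher and 1 lower (median 0.25). The endothelial mean ran from 7.82 to 8.11 in BPH/2J against 7.71 to 8.18 in BPN/3J at ‘peak’ BP. For ‘trough’ BP the ranges were 8.17 to 8.23 against 7.73 to 7.90, apart and higher in BPH/2J, with 3 mice per strain. That mean includes Slco1a4, whose difference was the largest of the 6 at ‘trough’ BP. Of all single probesets, 19.9% did not overlap between the strains there, in either direction. Of 10 markers of hypothalamic neurons, Gal passed as higher in BPH/2J at ‘peak’ BP (0.89, adjusted p 0.0322 in limma). That is 10% of the list, beside 1.33% of all probesets. In all, 8 of these 10 markers were above 0 at ‘peak’ BP, with a median of 0.63. An unadjusted p under 0.05 was found for 6, beside 9.93% of all probesets, and 5 were past 1.5-fold, beside 3.11%. At ‘trough’ BP the median was 0.02, with 0 at an unadjusted p under 0.05. The mean of the list at ‘peak’ BP ran from 9.08 to 9.89 in BPH/2J against 8.58 to 9.67 in BPN/3J. Avp, Oxt, Trh and Hcrt of this list were reported by the study from these same arrays. The shift of the list at ‘peak’ BP is therefore no independent reading of cell makeup. None of the 10 markers of border macrophages and dendritic cells passed between the strains in limma. At ‘peak’ BP 1 had an unadjusted p under 0.05, beside 9.93% of all probesets, and 7 of 10 were higher in BPH/2J (median 0.06). At ‘trough’ BP 4 did, 3 lower and 1 higher, beside 10.4%, and 7 of 10 were lower in BPH/2J (median -0.13). Over time in BPN/3J all 10 were lower at ‘peak’ BP (median -0.19), with 3 passing (30%, beside 25.3% of all probesets). In BPH/2J 8 of 10 were lower and 1 passed. The 6 choroid plexus markers gave 0 passes and 0 at an unadjusted p under 0.05 at either time. All 6 were lower in BPH/2J at ‘peak’ BP (median -0.41), as were 4 of 6 at ‘trough’ BP (median -0.19). Their mean varied widely at ‘peak’ BP, from 6.25 to 9.07 in BPH/2J and from 6.23 to 9.25 in BPN/3J. The part of cell makeup in the B2m difference was not tested.

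Over time, B2m passed in both strains and rose from ‘trough’ to ‘peak’ BP. The rise was 1.49-fold in BPH/2J (interval 1.25 to 1.77), a log2 difference of 0.57 ± 0.12 (SE, adjusted p 0.00694 in limma). It was 1.66-fold in BPN/3J (interval 1.39 to 1.97), 0.73 ± 0.12 (adjusted p 0.000914 in limma). All ‘peak’ mice of a strain were above all ‘trough’ mice of that strain. The same quantity *d* tests whether the rise differed between strains, and it did not pass, as given above. Passing in the same direction in both strains applied to 5.95% of all probesets.

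In BPH/2J, 1 of 37 members passed over time, B2m (2.7%, beside 8.64% of all probesets), and 3 had an unadjusted p under 0.05, beside 23.1%. Besides B2m these were H2-M10.6 (0.32, adjusted p 0.101 in limma) and H2-M10.1 (-0.32, adjusted p 0.0657). Values at ‘peak’ and ‘trough’ BP did not overlap for 3 members, beside 17.7% of all probesets, B2m above and Tapbp and H2-M10.1 below. The members' median was -0.05, beside -0.02 over all probesets. For 31 members the interval lay within 1.5-fold, beside 64% of all probesets.

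In BPN/3J, 8 of 37 members passed (21.6%, beside 25.3% of all probesets), B2m higher and 7 lower at ‘peak’ than at ‘trough’ BP, beside 12.4% lower of all probesets. An unadjusted p under 0.05 was found for 13 members, beside 39.9%. Past 1.5-fold were B2m and H2-M10.3, beside 12.2% of all, and 24 intervals lay within 1.5-fold, beside 51.8%. The 7 that fell were Psmb9 (-0.49, adjusted p 0.00877 in limma), Ciita (-0.48, adjusted p 0.0105), H2-T10 (-0.49, 0.0314), H2-M10.3 (-0.65, 0.0326), H2-M11 (-0.34, 0.0342), H2-M9 (-0.43, 0.0441) and H2-Bl (-0.39, 0.0457). Psmb9 and B2m were the only members without overlap between the times (5.41%, beside 20.8% of all probesets). The members' median was -0.19, beside -0.01 over all probesets. The 127 probesets of other genes in the H2 region had a median of -0.25 in the same comparison, with 46 passing (36.2%), 40 of them lower at ‘peak’ BP. Among dim probesets it was -0.26 over the 18 members and -0.06 over all. With each array centred on its median, 4 members passed and the members' median was -0.10, beside 0.08 over all probesets.

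All 7 calls were lost when 1 mouse, BPN/3J ‘trough’ mouse 1, was left out, while the values stayed below 0. With each array left out in turn, Psmb9 and Ciita passed in 17 of 18 fits and H2-M10.3 in 15. H2-M11 and H2-T10 passed in 14, H2-Bl in 8 and H2-M9 in 6, so several of these calls were also lost without other arrays. BPN/3J ‘trough’ mouse 1 had the highest value of all 18 mice in 18 of 37 members (48.6%), beside 17.2% of all probesets and 25.5% of dim probesets. Its array also had the highest median signal, 6.42. In H2-M10.3 it had 5.94, where the other BPN/3J ‘trough’ mice had 5.01 and 5.26. In H2-M9 it had 6.10, where the others had 5.40 and 5.60, and in Ciita it had 6.05, where the others had 5.49 and 5.79. Without that mouse, 1 member passed over time in BPN/3J, B2m (0.60, adjusted p 0.00897 in limma), beside 11% of all probesets, and Psmb9 (-0.43) had an adjusted p of 0.0574. The other 6 were then at -0.34 (Ciita), -0.37 (H2-T10), -0.39 (H2-M10.3), -0.24 (H2-M11), -0.23 (H2-M9) and -0.26 (H2-Bl), with adjusted p of 0.0890 to 0.316 in limma. Without it the members' median strain difference at ‘trough’ BP was -0.04, and 2 rather than 7 members had an unadjusted p under 0.05. Over the same arrays B2m passed at ‘trough’ BP as well (-0.75, adjusted p 0.0305 in limma, beside 0.285% of all probesets).

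Markers of blood cells were read in the same comparisons. The 10 T and NK cell markers had a median strain difference of -0.15 at ‘trough’ BP, with 0 passing in limma and 1 at an unadjusted p under 0.05. Over time in BPN/3J their median was -0.32 and 2 fell. The 5 measured B cell markers had medians of -0.24 and -0.37 in the same comparisons, with 0 and 3 passing. The share of all probesets that passed over time in BPN/3J was 25.3%, and 12.4% passed as lower. As a mean level the B cell markers lay at 5.12 to 5.29 in BPN/3J and at 4.90 to 4.98 in BPH/2J at ‘trough’ BP. Both lists had dim means, under the 40th percentile of signal (5.64) in every mouse. Over all dim probesets the median was -0.08 between the strains at ‘trough’ BP and -0.06 over time in BPN/3J. BPN/3J ‘trough’ mouse 1 had the highest value in 25.5% of dim probesets. The part of blood cells in the values of the members was not tested.

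**Figure D4:**
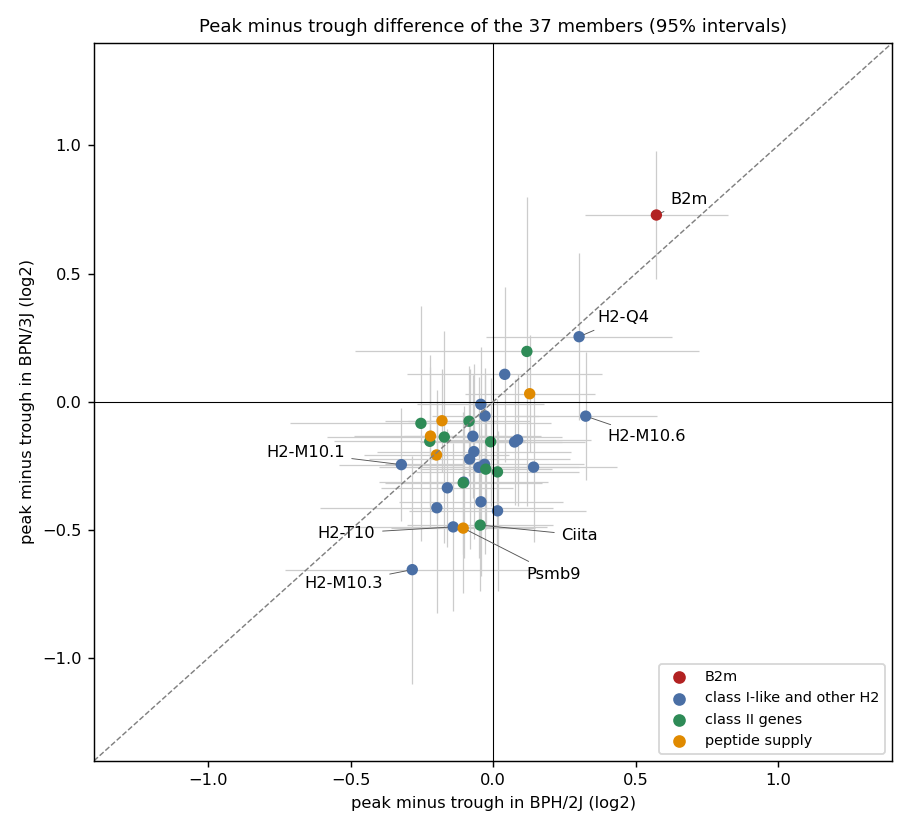
Difference between ‘peak’ and ‘trough’ BP (log2) of the 37 members in BPH/2J (horizontal) and BPN/3J (vertical), with grey 95% intervals, a dashed line of equal differences and colours by role. B2m is the only member that passed in both strains, at 0.57 and 0.73. In BPN/3J 32 of 37 members lie under 0, beside 17854 of all 34760 probesets. With each array centred on its median, 11 rather than 5 members lie above 0 there.

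The other members over time can be given briefly. The class II genes Cd74, H2-Ab1 and H2-Aa were at -0.25, -0.22 and -0.17 in BPH/2J and -0.08, -0.15 and -0.14 in BPN/3J, with none passing. Tap1, Tap2 and Tapbp were at -0.18, -0.20 and -0.22 in BPH/2J and at -0.07, -0.21 and -0.13 in BPN/3J. The probeset listed with H2-T9, H2-T22 and H2-T10 was at 0.67 in BPH/2J and 0.70 in BPN/3J, the largest differences over time among the 10 shared probesets (adjusted p 0.185 and 0.0876 in limma). That probeset varied widely between mice of one group, from 6.33 to 7.71 in BPH/2J at ‘peak’ BP, whereas H2-T10 on its own probeset was at -0.14 and -0.49. Psme1, which encodes a proteasome activator subunit, was the only gene of the class I loading list to pass over time in either strain (0.54 and 0.53, adjusted p 0.00803 and 0.00453 in limma). That is 7.69% of the list in each strain, beside 8.64% of all probesets in BPH/2J and 25.3% in BPN/3J.

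**Figure D5:**
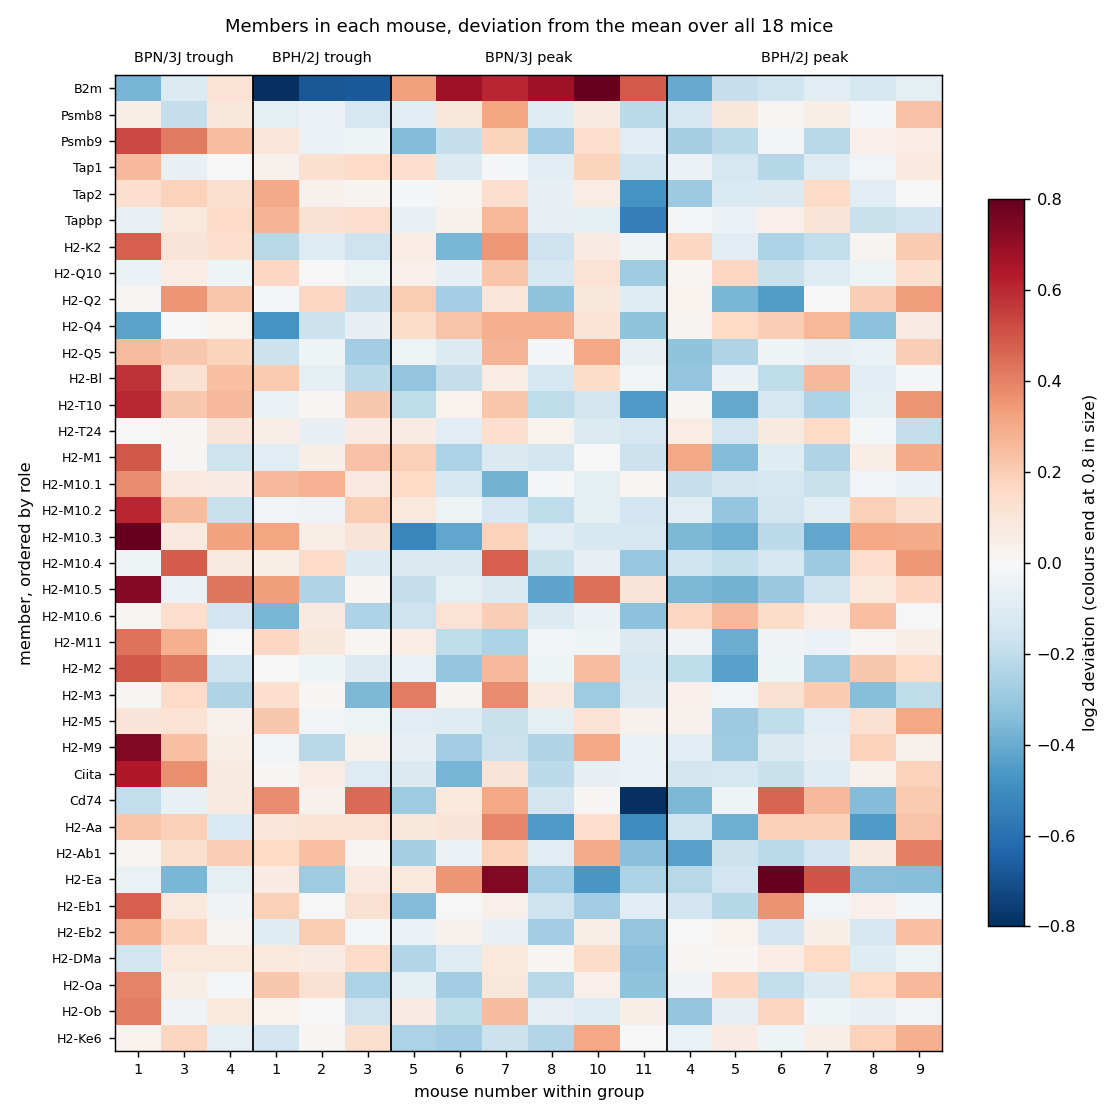
Deviation of each member (rows, ordered by role) from its mean over all 18 mice, in log2 units, for each mouse (columns, by group and mouse number). The B2m row separates the strains at both times, and the first BPN/3J ‘trough’ column holds the highest value in 18 of 37 rows.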

How the data were processed

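Hypothalamic RNA of 18 mice was measured on Affymetrix Mouse Gene 1.0 ST arrays. The deposited values are log2 signals, which the authors had background-corrected, normalized and summarised per probeset by RMA, all 18 arrays in 1 table. The submitters' processing notes name RMA and limma, with versions not given in the sources used here. The quantitative PCR of the study was not analysed here. Gene names came from the platform annotation, and all 37 symbols matched RefSeq (GRCm38.p6). Of all probesets, 21640 list 1 symbol, 1321 several and 11799 none.

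The deposited log2 values were used without further scaling or filtering. A model of the 4 groups was fitted in limma (3.58.1, R 4.3.3) with lmFit and eBayes (14 residual and 2.94 prior degrees of freedom), and 5 contrasts were taken, with Benjamini-Hochberg adjustment over 34760 probesets. Contrasts share samples, so their values are given side by side. The fit was checked on simulated data. Figures and motif counts were made in Python 3.11.15 with matplotlib 3.10.9. Array signals carry no read depth, so precision is limited by how many arrays there are. Labels and tables give no batch or scan date.

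Members were named in full by role, and from every other list at most 4 genes, those that passed between the strains with the smallest p (neighbours at most 6). Psme1 was named after its values were seen. Members and lists were chosen with earlier results of these data known. Whether mouse numbers shared by the strains pair the mice is not known. Residuals of same-numbered mice correlated at -0.30 to 0.19, which cannot settle it, since no differently numbered mice were set beside them. No block was used in the main fit. Alternatives were quantile normalization, median centring, removal of dim probesets or of probesets without 1 symbol, array weights, a trended robust prior, fits of fewer arrays and the replicate number as a block.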

Additional observations from a re-analysis of the deposited data

Results flagged for a closer look

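In groups of 6 mice, 5 of 74 member and group combinations had a highest or lowest mouse whose gap to the nearest other mouse was a large part of the range of the group (Dixon's ratio, above its 95% critical value). Chance gives about 1 in 20 such groups. For Tap2 the ratio was 0.669 in BPN/3J at ‘peak’ BP, where mouse 11 had 6.62 and the others 7.03 to 7.23. For H2-Q4 it was 0.712 in the same group, again with mouse 11 lowest at 5.68 and the others at 6.11 to 6.28. For H2-M10.4 it was 0.701 in that group, with mouse 7 highest at 5.73 and the others at 4.96 to 5.19. For H2-M11 it was 0.769 in BPH/2J at ‘peak’ BP, where mouse 5 had 3.74 and the others 4.09 to 4.19. For B2m it was 0.655 in that group, where mouse 4 had 9.52 and the others 9.73 to 9.85, so the mouse set apart was the one farthest from the BPN/3J mice. Without it the B2m strain difference at ‘peak’ BP still passed, as it did without every other array.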

How the results depend on the processing

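B2m in the 5 comparisons and the 7 members that fell in BPN/3J kept their direction in every setting. At ‘peak’ BP, 1 member (B2m) passed between the strains in every setting except with the higher-numbered ‘peak’ mice only, 3 per strain, where 0 passed (B2m -0.77, adjusted p 0.172 in limma). At ‘trough’ BP, 1 member (B2m) passed with quantile normalization (adjusted p 0.0104), without dim probesets (0.0275), with probesets of 1 symbol only (0.0295), with a trended robust prior (0.0334), with the lower-numbered ‘peak’ mice only (0.0480) and without BPN/3J ‘peak’ mice 10 and 11, the 2 arrays least correlated with their group (0.0396). With array weights, 7 passed. In each of these 7 settings 1 member, B2m, passed at both times. With each array left out in turn, 1 to 1 passed at ‘peak’, 0 to 1 at ‘trough’ BP and 0 to 1 at both, with 1 without BPN/3J ‘trough’ mouse 1, ‘peak’ mouse 5 or ‘peak’ mouse 10. For *d*, 0 passed throughout. Over time in BPH/2J, 2 passed with probesets of 1 symbol only, 5 with array weights, 4 with the lower-numbered and 0 with the higher-numbered ‘peak’ mice, and 0 to 2 with each array left out (0 without BPH/2J ‘trough’ mouse 1, and 2 without BPN/3J ‘trough’ mouse 1 or ‘peak’ mouse 7). Over time in BPN/3J, 4 passed with median centring, 3 without dim probesets, 18 with array weights and 1 with the higher-numbered ‘peak’ mice, and 1 to 9 with each array left out. That count was 1 without ‘trough’ mouse 1, 4 without ‘trough’ mouse 3, ‘peak’ mouse 5 or ‘peak’ mouse 6, and 5 without ‘peak’ mouse 8. The array weights of the BPN/3J ‘trough’ mice were 9.44 for mouse 3 and 0.409 and 0.636 for the others. The cause of these changes was not tested, apart from the fewer arrays or probesets that some settings use. With the replicate block, on the 12 arrays whose numbers occur in both strains, B2m differed by -0.71 at ‘peak’ (adjusted p 0.0328 in limma) and -0.54 at ‘trough’ BP (0.316), with 1 and 0 members passing. The same arrays without the block, a setting chosen after seeing the data, gave an adjusted p of 0.00605 and 0.189. No paired value over time could be had. Median centring reversed the members' median over time in BPH/2J from -0.05 to 0.01.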
